A study of Rattus norvegicus with 24 samples.

Results

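The genes described are a module of 43 cell cycle and proliferation genes: G1 cyclins with their kinases and inhibitors, DNA replication factors, genes of G2 and mitosis, and transcription factors of the cycle. They were chosen by name, and every probe set that the platform annotation assigns to 1 of them alone was taken. Of the 43 genes, 41 were measured, on 58 of the 31042 probe sets tested. The G1 class holds 17 probe sets of 10 genes, DNA replication 9 of 9 genes, G2 and mitosis 26 of 18 genes, and the transcription factors 6 of 4 genes. Tpx2 was not analysed here, and Rrm2 was read by probe sets it shares with Rrm2l1, which are described with the closing observations.

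RNA came from the abdominal mammary gland pairs of Sprague-Dawley rats on postnatal day 33, on 24 one-colour Affymetrix arrays. From weaning on postnatal day 21 the rats carried subcutaneous pumps that released 17β-estradiol, the main ovarian estrogen. The groups were males at 0, 0.1, 1 and 10 µg per kg per day and females at 0, 0.1, 1 and 10 µg per kg per day, 3 arrays each. A dose is written below as its number alone, and every group shares the strain, the age and the pump. The labels do not say whether an array is 1 animal, and p-values can therefore reflect only how far these arrays scatter, part of which may be technical. The males at 0 and the females at 0 carried a pump without estradiol.

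Cells enter the cycle when D-type cyclins activate their kinases and E-type cyclins follow, against inhibitors that hold those kinases back. The minichromosome maintenance helicase, the PCNA clamp and the enzymes of nucleotide supply then copy the DNA, and B-type cyclins with Cdk1, the spindle motors and the anaphase machinery divide the cell. In the pubertal mammary gland estradiol is known to drive growth of the epithelial ducts into the fat pad, and most dividing cells lie in the duct ends and ducts. The glands were taken whole, so RNA of epithelium, fat, vessels, lymph nodes and neighbouring tissue was mixed. The deposited values were taken as log2 signals centred near 0 within each sex, which the labels do not state and which was inferred from the values: on every probe set between 3 and 9 of the 12 arrays of a sex lay above 0. No absolute level is kept, and levels of males and females are not compared. For the same reason the labelled tissue could not be checked for the presence of its markers, only for how they moved.

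A few arrays carried hepatocyte transcripts, and they touch every comparison with 0 or with 1 in both sexes. The mean of 15 measured hepatocyte genes, of 16 listed, was -0.21, -0.16 and -0.27 in males at 10 and -0.11, 1.38 and 2.48 in males at 0. In females it was -0.74, -0.51 and -0.73 at 10 and 2.32, -0.081 and -0.066 at 0. At 1 it was 0.83 in replicate 7 of the females and 1.09 in replicate 7 of the males. The 3′ signal of beta-actin minus its 5′ signal, a sign of RNA integrity and labelling, was -0.021, 0.16 and 0.055 in males at 10 and -0.56, -0.059 and -0.28 in males at 0. The spread over probe sets was widest in replicate 4 of the females at 0.1 and replicate 1 of the males at 0. Their part in the results below was not tested, but fits without them are given where they change a count.

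In males at 10 the called members were of the G1 and replication classes. Cyclin D1 (Ccnd1), cyclin E2 (Ccne2), Cdkn1b and the helicase subunits Mcm3, Mcm4 and Mcm7 were higher than in males at 0. Cyclin D3 (Ccnd3) was lower, and no mitotic gene was called. The shares were 12.1% of members higher and 1.72% lower, against 7.81% and 9.64% of all probe sets tested. Of the 8 calls, 1 held whichever single array was left out. With T and B cell marker means or the beta-actin difference as covariates, 0 members were called. The share of all probe sets called in those fits is not given, so whether the loss is particular to the members was not tested. In females at 10 the G2 and mitosis genes had the larger differences, with a median of 0.52, yet no member was called, and without 1 of the 3 arrays the median was 0.23. With the sexes averaged, 11 of 26 mitotic probe sets were called higher, against 5.56% of all probe sets tested. Among them were Mki67, Top2a, Ccnb1, Ccnb2, Nusap1 and Aurka. The averaged contrast called 21 members in all. It called 4 without replicate 10 of the females at 10, and 4 without replicate 1 of the males at 0. In these whole glands more dividing cells and more RNA per dividing cell cannot be told apart.

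In males at 10 against 0, limma called 7 of 58 member probe sets higher, which is 12.1%, against 7.81% of all probe sets tested. It called 1 lower (1.72% of members, against 9.64% of all). A call is a Benjamini-Hochberg adjusted p under 0.05 over all 31042 probe sets. The share higher was a little above that of the whole array and the share lower was below it. In females at 10 against 0, limma called 0 members higher and 0 lower, against 0.812% and 1.05% of all probe sets. At an unadjusted p under 0.05 the females had 24 probe sets higher (41.4% of members, against 6.01% of all) and 3 lower (against 7%), and the males 15 higher (25.9%, against 16.2%) and 2 lower (against 16%). The averaged contrast called 18 higher (31% of members, against 5.56% of all), from 14 genes, and 3 lower (5.17%, against 8.01%).

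In males at 10 the median difference from 0 was 0.065 for G1, 0.38 for DNA replication, 0.21 for G2 and mitosis and 0.093 for the transcription factors, beside -0.0053 over all probe sets tested. In females at 10 the same medians were 0.065, 0.063, 0.52 and 0.20, beside -0.0053 over all. In this fit replication genes had the largest class median in males and G2 and mitosis genes the largest in females. The order in males turned with 3 sets of covariates: the G2 and mitosis and the replication median were 0.53 and 0.34 with the T and B cell means, 0.42 and 0.41 with hepatocyte and skeletal muscle means, and 0.28 and 0.22 with the beta-actin difference. All 26 G2 and mitosis probe sets lay above 0 in males and 25 of 26 in females, against 49.1% and 48.5% of all probe sets, although the males had no call among them.

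**Figure D1:**
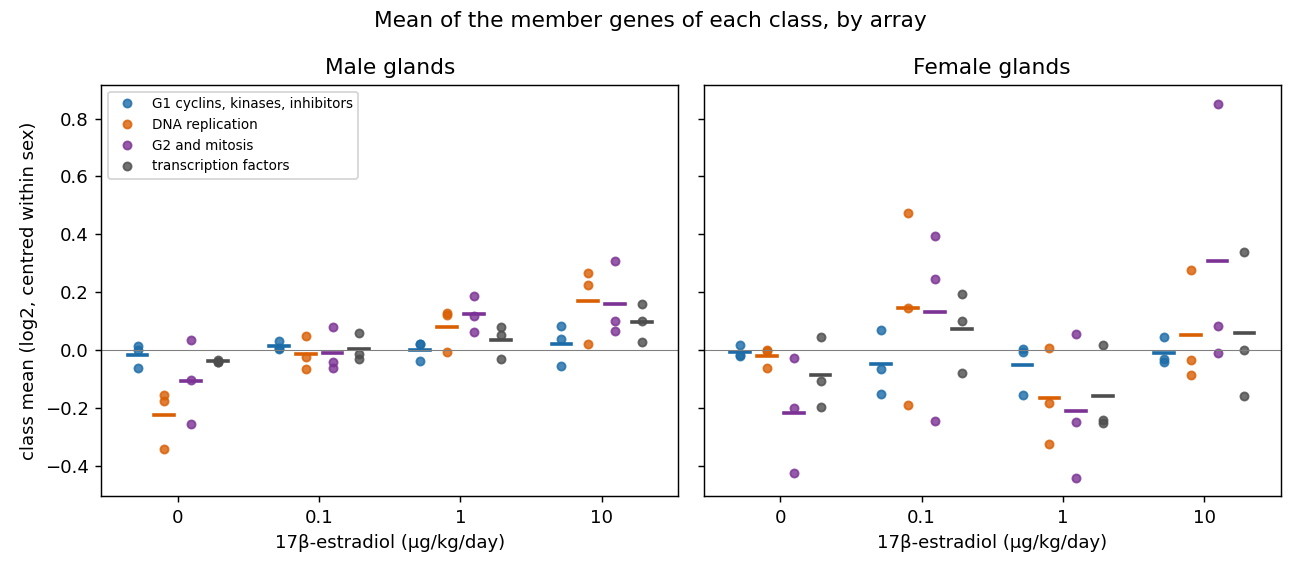
Mean over the member genes of each class on each array (log2, centred within sex) against the dose of 17β-estradiol in µg/kg/day, males on the left and females on the right; points are arrays and bars are means of 3 arrays. In males the DNA replication mean was 0.021, 0.22 and 0.27 at 10 and -0.34, -0.16 and -0.18 at 0; in females the G2 and mitosis mean was 0.85, 0.082 and -0.0093 at 10 and -0.028, -0.20 and -0.43 at 0.

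**Figure D2:**
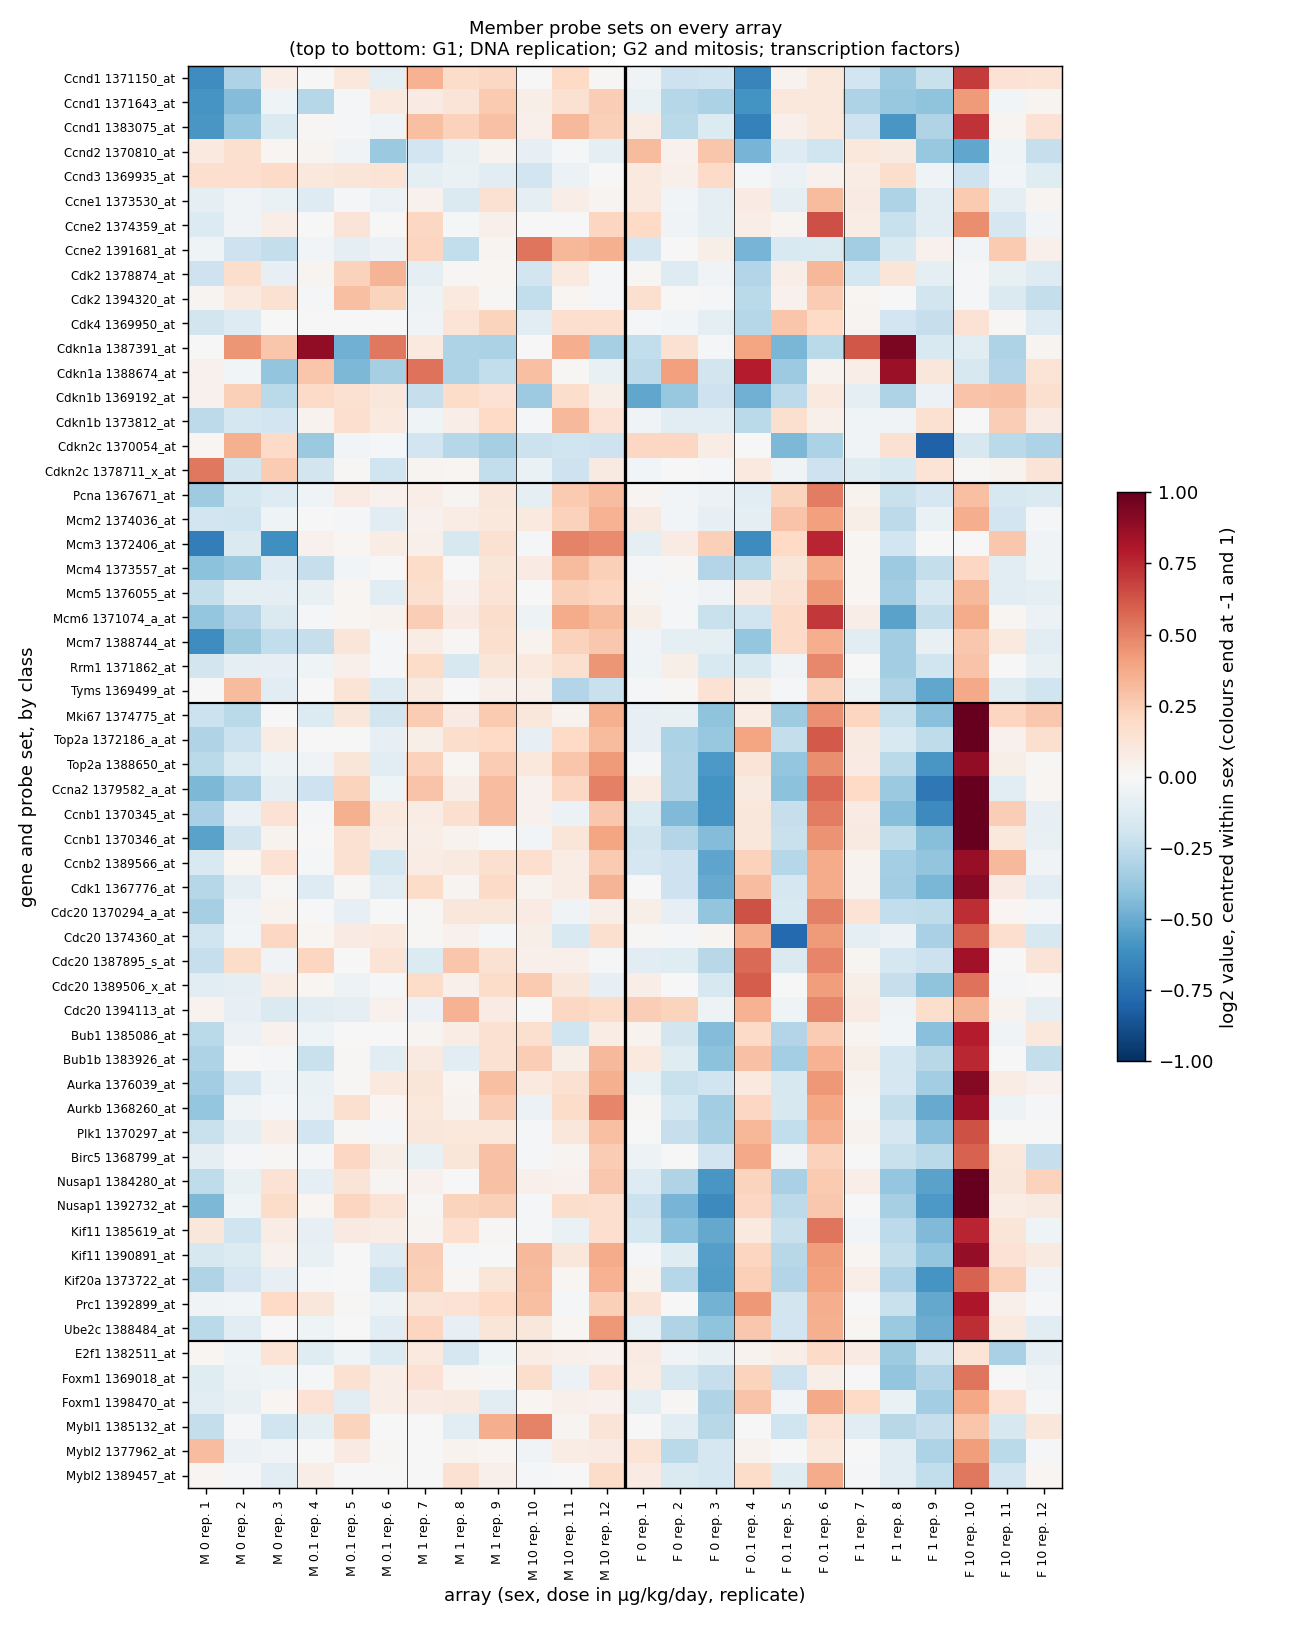
Every member probe set (rows, by class) on every array (columns, males left and females right, by dose in µg/kg/day), coloured by the log2 value centred within sex, with colours ending at -1 and 1. Replicate 10 of the females at 10 is red across G2 and mitosis, where it was the highest of the 12 female arrays in 24 of 26 probe sets, and replicate 1 of the males at 0 is blue there, where it was the lowest of the 12 male arrays in 21.

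The D-type cyclins bind Cdk4 and Cdk6 and are the first cyclins of G1. Ccnd1, a gene known to respond to estrogen in breast cells, was read by 3 probe sets. On 1383075_at it read 0.047, 0.32 and 0.24 in males at 10, against -0.58, -0.38 and -0.14 in males at 0. On 1371643_at it read 0.059, 0.15 and 0.24 in males at 10, against -0.59, -0.43 and -0.045 in males at 0. On both, every male array at 10 lay above every male array at 0, and both rose, by 0.57 ± 0.19 (SE; adjusted p = 0.0414) and 0.51 ± 0.17 (adjusted p = 0.0452), the larger being 1.48-fold (95% interval 1.13 to 1.95) if the values are log2. On 1371150_at Ccnd1 read 0.0049, 0.20 and 0.0087 in males at 10 and -0.62, -0.31 and 0.065 in males at 0, and these groups overlapped. In females at 10 the values of 1383075_at were 0.72, 0.028 and 0.14, and in females at 0 0.072, -0.27 and -0.13. Those of 1371643_at were 0.43, -0.028 and 0.028 in females at 10 and -0.067, -0.28 and -0.31 in females at 0. On 1371150_at they were 0.70, 0.15 and 0.13 in females at 10 and -0.035, -0.20 and -0.20 in females at 0. Replicate 10 was the highest female array at 10 in each case, and the female differences of 0.41 on 1383075_at, 0.36 on 1371643_at and 0.47 on 1371150_at did not pass (lowest adjusted p = 0.241). With the sexes averaged all 3 rose, by 0.41 to 0.49 (adjusted p between 0.0174 and 0.039). With the beta-actin difference as a covariate the male differences were 0.30 on 1383075_at and 0.27 on 1371643_at and were not called.

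Cyclins D2 and D3 went the other way. Ccnd3 read -0.20, -0.062 and 0.0076 in males at 10, against 0.16, 0.17 and 0.19 in males at 0. In females it read -0.21, -0.026 and -0.12 at 10, against 0.098, 0.049 and 0.19 at 0. The groups did not overlap in either sex, and the 3 control arrays of the males lay within a narrow band at the top. Ccnd3 fell in males by 0.26 ± 0.067 (adjusted p = 0.0128) and with the sexes averaged by 0.24 ± 0.048 (adjusted p = 0.00173); in females the difference was -0.23 ± 0.067 (adjusted p = 0.0918). Its male call at 10 was lost with the compared groups alone, with the T and B cell covariates and with the beta-actin covariate. At 1 Ccnd3 read -0.10, -0.066 and -0.11 in males and was lower than at 0 (-0.27 ± 0.067, adjusted p = 0.0346), the single member called at that dose. The call at 1 was lost whichever of the 6 arrays was left out (highest adjusted p = 0.136 in limma). The difference then lay between -0.28 and -0.26. Ccnd2 read -0.084, -0.016 and -0.093 in males at 10 and 0.097, 0.16 and 0.016 in males at 0. The females read -0.52, -0.043 and -0.23 at 10 and 0.32, 0.043 and 0.28 at 0. Its groups did not overlap in either sex, though the differences of -0.16 in males and -0.48 in females passed only when averaged (-0.32 ± 0.099, adjusted p = 0.0396).

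E-type cyclins bind Cdk2 at the step into S phase. Ccne2 on 1391681_at read 0.53, 0.33 and 0.35 in males at 10, against -0.045, -0.21 and -0.24 in males at 0. The gap between the groups was wide, and the probe set rose by 0.57 ± 0.12 (1.49-fold (95% interval 1.24 to 1.77); adjusted p = 0.00352), the smallest adjusted p among the members in that contrast. Female arrays read -0.027, 0.26 and 0.051 at 10 and -0.17, -0.0034 and 0.056 at 0, overlapping groups with a difference of 0.13 ± 0.12. The other Ccne2 probe set, 1374359_at, read 0.007, 0.0067 and 0.22 in males at 10 and -0.14, -0.037 and 0.066 in males at 0 and differed by 0.11 ± 0.16. The probe sets of this gene disagreed, and which transcripts each reads was not tested. Averaged over both, Ccne2 had a male difference of 0.34, which was still called. The male call of 1391681_at was lost with the T and B cell covariates and with the beta-actin covariate. Ccne1 (1373530_at) differed by 0.065 ± 0.11 in males and 0.069 ± 0.11 in females. The kinases moved little: the probe sets of Cdk2 and Cdk4 had differences between -0.18 and 0.18 in males and between -0.18 and 0.057 in females, and none was called in any comparison.

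The inhibitors were mixed. Cdkn1b encodes an inhibitor of cyclin E and cyclin A kinases, and on 1373812_at it read -0.021, 0.32 and 0.15 in males at 10, against -0.26, -0.17 and -0.19 in males at 0. Every male array at 10 was above every array at 0, and it rose by 0.36 ± 0.10 (adjusted p = 0.0241). It was not called at 0.16 averaged over its probe sets, at 0.18 with the T and B cell covariates or at 0.17 with the beta-actin covariate. In females 1373812_at read -0.0057, 0.25 and 0.081 at 10 and -0.034, -0.11 and -0.11 at 0. The second Cdkn1b probe set, 1369192_at, read -0.36, 0.18 and 0.056 in males at 10 and 0.042, 0.24 and -0.27 in males at 0, a difference of -0.048 ± 0.16. Values in females were 0.29, 0.30 and 0.16 at 10 and -0.52, -0.38 and -0.20 at 0, with no overlap, a difference of 0.62 ± 0.16 and the smallest adjusted p among members in females, 0.0534, just above the threshold. Its male minus female difference of -0.66 ± 0.23 had an adjusted p of 0.134. Cdkn2c, an inhibitor of Cdk4 and Cdk6, read on 1370054_at -0.21, -0.20 and -0.20 in males at 10 and 0.02, 0.36 and 0.19 in males at 0. For females the values were -0.16, -0.27 and -0.31 at 10 and 0.21, 0.21 and 0.075 at 0. It fell with the sexes averaged (a difference of -0.40 ± 0.12, adjusted p = 0.0345), without overlap in either sex, while 1378711_x_at of the same gene differed by -0.26 in males and 0.07 in females. The average for Cdkn2c was -0.25 over its probe sets, still called, and -0.26 on 1370054_at with the T and B cell covariates, not called. The p53 target Cdkn1a, on 2 probe sets, spread from -0.48 to 0.94 over the arrays without a call.

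**Figure D3:**
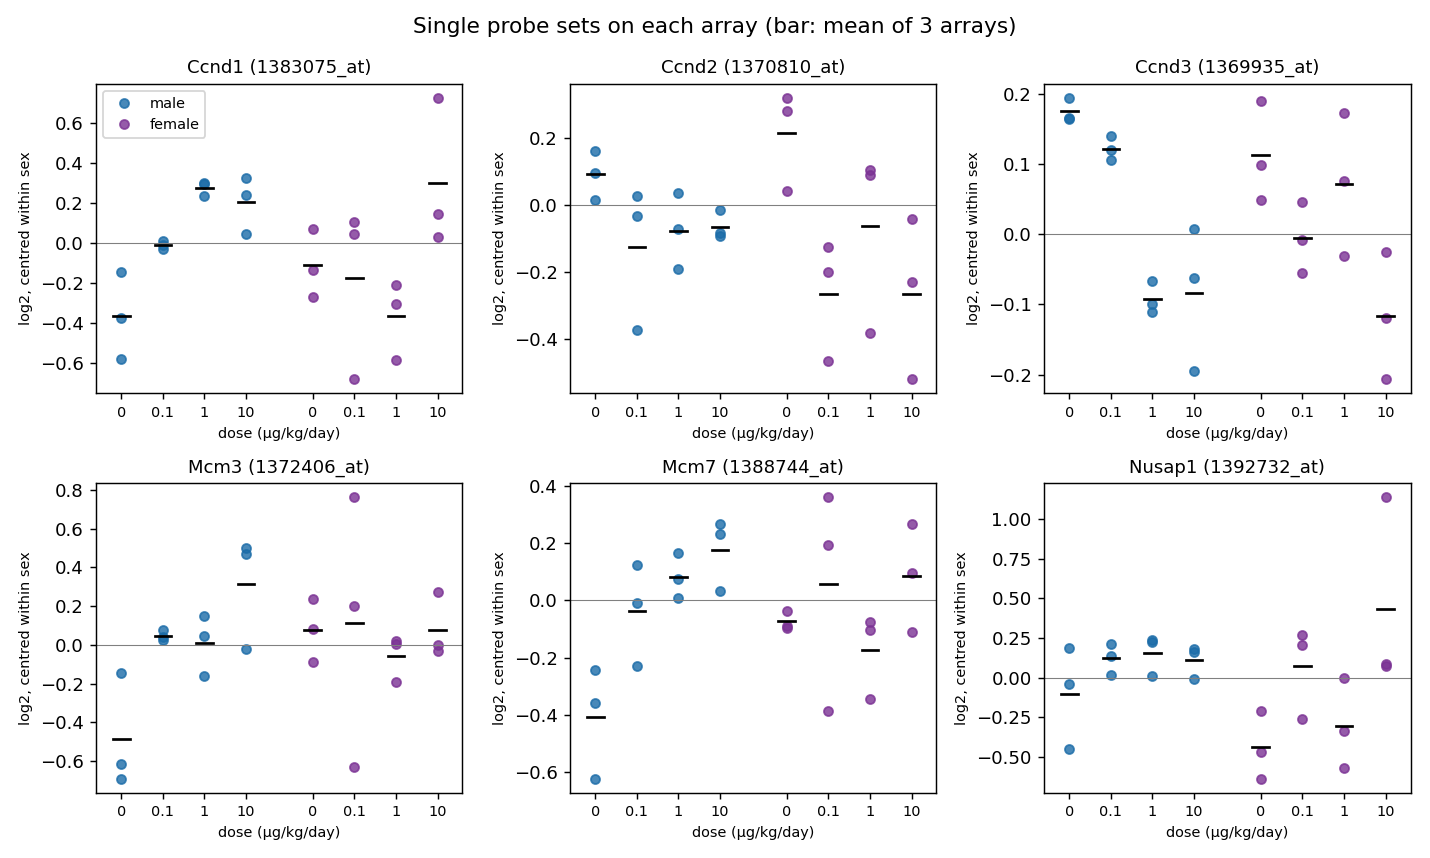
Values of 6 member probe sets on each array (log2, centred within sex) against dose in µg/kg/day, males left and females right in each panel; bars are means of 3 arrays. Ccnd3 at 10 lies below 0 µg in both sexes, Mcm3 and Mcm7 separate the doses 10 and 0 in males but not in females, and the highest Nusap1 point (1392732_at) is replicate 10 of the females at 10, at 1.14.

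DNA replication genes were the class with the clearest separation of the male groups. Mcm2 to Mcm7 are the 6 subunits of the replicative helicase, and all 6 were higher on every male array at 10 than on every male array at 0. Mcm3 read -0.022, 0.50 and 0.47 in males at 10, against -0.69, -0.15 and -0.61 in males at 0. It rose by 0.80 ± 0.23 (1.74-fold (95% interval 1.24 to 2.45); adjusted p = 0.0247), the largest difference of any member in males in this fit. Mcm4 read 0.08, 0.32 and 0.24 in males at 10, against -0.41, -0.37 and -0.13 in males at 0. Mcm7 read 0.032, 0.23 and 0.27 in males at 10, against -0.62, -0.36 and -0.24 in males at 0. Both rose, Mcm4 by 0.51 ± 0.14 (adjusted p = 0.0179) and Mcm7 by 0.59 ± 0.15 (adjusted p = 0.0128). With the beta-actin covariate the differences were 0.20 for Mcm3 and 0.32 for Mcm7, and with the T and B cell covariates 0.33 for Mcm3. The calls of Mcm3, Mcm4 and Mcm7 were all lost with either of these covariate sets. Leaving out 1 array lost the call of Mcm3 in 4 of 6 fits, of Mcm4 in 3 and of Mcm7 in 3. Mcm2, Mcm5, Mcm6, the sliding clamp gene Pcna and the ribonucleotide reductase subunit Rrm1 differed by 0.29 to 0.49 with no overlap but did not pass (adjusted p from 0.0546 to 0.0976). In all 8 of 9 replication probe sets were higher without overlap, against 18.2% of all probe sets. The exception was Tyms, which makes thymidylate, with 0.052, -0.29 and -0.22 in males at 10 and -0.00078, 0.31 and -0.11 in males at 0.

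The female arrays did not show this separation. Mcm3 read -0.0031, 0.27 and -0.031 in females at 10 and -0.088, 0.083 and 0.24 in females at 0, a difference of 0.0011 ± 0.23. Mcm4 read 0.21, -0.10 and -0.046 in females at 10 and -0.0086, 0.0086 and -0.30 in females at 0. Mcm7 read 0.27, 0.095 and -0.11 in females at 10 and -0.037, -0.089 and -0.095 in females at 0. All 3 overlapped between the doses, and the 9 probe sets differed by -0.029 to 0.17 with none called. Replicate 10 was the highest of the females at 10 in 8 of the 9. The highest female array of all 12 was replicate 6 at 0.1 in 8 of the 9, not an array at 10. The male minus female difference for Mcm3 was 0.80 ± 0.33 (unadjusted p = 0.0266, adjusted p = 0.209 in limma), so the contrast between the sexes was not called for it. Averaged over the sexes, Mcm4 (0.32 ± 0.10, adjusted p = 0.0427) and Mcm7 (0.37 ± 0.11, adjusted p = 0.0267) passed.

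The promoters of the classes differ in their letters. RefSeq windows of 300 bases (250 before to 50 after the start) on build GRCr8 were found for 31 of the 41 measured members. Both strands were searched for TTTGAA, the core of the cell cycle homology region, for CCAAT, the NF-Y box, and for TTCCCGC and TTGGCGC, which fit the E2F site, all known from human and mouse genes. TTTGAA was in 10 of 15 G2 and mitosis windows, 1 of 8 replication windows and 0 of 7 G1 windows, against 18.3% of all 33469 windows. TTCCCGC was in 0, 4 and 2 of them, against 4.21%, and TTGGCGC in 2, 4 and 0, against 2.26%. CCAAT was in 12, 6 and 3, against 37.5%. These are matches of letters, not measured binding. The 5 windows printed, credited to RefSeq, belong to mitotic genes called with the sexes averaged (Top2a, chr10:84473044-84473343 (minus strand); Ccnb2, chr8:79981609-79981908 (minus strand); Nusap1, chr3:127057045-127057344 (plus strand)) and to helicase genes called in males (Mcm3, chr9:30733697-30733996 (minus strand); Mcm7, chr12:22163129-22163428 (minus strand)). Each runs 5′ to 3′ in the direction of its gene, and capitals mark a motif in either orientation, so TTCAAA stands for the first motif, ATTGG for the NF-Y box and GCGGGAA for the first E2F form, read on the other strand.
Top2a: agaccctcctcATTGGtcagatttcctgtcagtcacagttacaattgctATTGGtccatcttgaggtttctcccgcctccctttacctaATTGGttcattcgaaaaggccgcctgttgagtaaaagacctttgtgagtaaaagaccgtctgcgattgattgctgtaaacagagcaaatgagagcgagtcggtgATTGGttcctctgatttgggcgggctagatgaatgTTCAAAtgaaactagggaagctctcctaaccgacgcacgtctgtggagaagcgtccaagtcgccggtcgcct
Ccnb2: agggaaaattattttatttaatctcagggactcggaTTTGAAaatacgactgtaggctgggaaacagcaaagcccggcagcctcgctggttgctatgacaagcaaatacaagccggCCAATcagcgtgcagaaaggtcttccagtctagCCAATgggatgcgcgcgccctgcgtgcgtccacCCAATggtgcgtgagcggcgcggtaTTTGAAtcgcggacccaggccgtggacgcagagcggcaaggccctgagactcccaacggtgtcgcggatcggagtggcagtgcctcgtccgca
Nusap1: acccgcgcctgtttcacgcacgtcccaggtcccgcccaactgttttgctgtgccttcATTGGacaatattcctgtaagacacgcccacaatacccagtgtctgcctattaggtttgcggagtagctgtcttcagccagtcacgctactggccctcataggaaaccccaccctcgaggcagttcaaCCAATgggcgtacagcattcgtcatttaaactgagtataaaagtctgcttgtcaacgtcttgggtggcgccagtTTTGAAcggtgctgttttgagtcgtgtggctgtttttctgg
Mcm3: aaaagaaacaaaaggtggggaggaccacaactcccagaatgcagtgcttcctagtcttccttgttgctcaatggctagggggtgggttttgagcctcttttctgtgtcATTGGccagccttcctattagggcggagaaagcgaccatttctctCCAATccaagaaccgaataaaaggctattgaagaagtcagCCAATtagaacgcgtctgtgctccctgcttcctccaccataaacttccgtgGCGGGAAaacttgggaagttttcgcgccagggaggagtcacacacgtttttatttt
Mcm7: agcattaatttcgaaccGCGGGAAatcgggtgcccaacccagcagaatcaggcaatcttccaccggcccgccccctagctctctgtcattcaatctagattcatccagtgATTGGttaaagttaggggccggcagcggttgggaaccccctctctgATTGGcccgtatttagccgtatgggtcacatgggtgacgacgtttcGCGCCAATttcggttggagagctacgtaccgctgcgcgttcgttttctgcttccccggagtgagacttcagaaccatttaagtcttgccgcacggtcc
Top2a, Ccnb2 and Nusap1 each hold TTTGAA with 2 or more CCAAT boxes and neither E2F form, whereas Mcm3 and Mcm7 hold TTCCCGC and no TTTGAA. Windows not printed depart from this split. Among the mitotic windows without TTTGAA are those of Ccnb1, Kif11 and Kif20a. The windows of Mki67 and Cdk1 hold TTGGCGC beside TTTGAA, and that of Bub1b holds TTTGAA without CCAAT. Among replication genes, Mcm2 holds TTTGAA and neither E2F form, and Pcna holds neither E2F form. Mcm6 and Tyms hold TTGGCGC but no TTCCCGC. In Mcm7 a TTGGCGC on the other strand and a CCAAT overlap and print as 1 run of capitals.

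Mki67, the gene of the proliferation marker Ki-67, and Top2a, the topoisomerase that untangles chromosomes, are high in dividing cells. Mki67 read 0.12, 0.033 and 0.36 in males at 10, against -0.21, -0.27 and 0.0067 in males at 0. Among females it read 1.16, 0.21 and 0.27 at 10, against -0.083, -0.076 and -0.40 at 0. No array at 10 fell among those at 0 in either sex, and replicate 10 stood far above the other female arrays. The differences of 0.33 ± 0.22 in males and 0.74 ± 0.22 in females did not pass (adjusted p = 0.329 and 0.103), and their average rose by 0.53 ± 0.16 (1.45-fold (95% interval 1.15 to 1.81); adjusted p = 0.0294). Top2a on 1388650_at read 0.11, 0.28 and 0.43 in males at 10 and -0.27, -0.14 and -0.049 in males at 0. In females it read 0.89, 0.059 and 0.0096 at 10 and -0.0096, -0.30 and -0.57 at 0. On 1372186_a_at it read -0.079, 0.20 and 0.32 in males at 10 and -0.30, -0.22 and 0.076 in males at 0, where the groups overlapped. In females 1372186_a_at read 0.99, 0.046 and 0.16 at 10 and -0.086, -0.31 and -0.38 at 0, with no overlap. Both Top2a probe sets rose in the average, by 0.52 ± 0.16 and 0.48 ± 0.15 (adjusted p = 0.0349 and 0.0394).

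The B-type cyclins activate Cdk1 for entry into mitosis. Ccnb1 on 1370346_at read -0.024, 0.12 and 0.39 in males at 10, against -0.53, -0.18 and 0.035 in males at 0. The females read 1.06, 0.10 and -0.075 at 10, against -0.18, -0.29 and -0.44 at 0. Ccnb2 read 0.16, 0.071 and 0.26 in males at 10, against -0.16, 0.021 and 0.15 in males at 0. The male groups overlapped for both genes, and the lowest array was replicate 1 at 0. In females Ccnb2 read 0.87, 0.33 and -0.032 at 10, against -0.17, -0.21 and -0.53 at 0. The female groups did not overlap for either, with differences of 0.67 ± 0.23 for Ccnb1 and 0.69 ± 0.19 for Ccnb2 (adjusted p = 0.159 and 0.0684). In the average Ccnb1 rose by 0.53 ± 0.16 (adjusted p = 0.0341) and Ccnb2 by 0.43 ± 0.13 (adjusted p = 0.0399). Cdk1 itself and Ccna2, the cyclin of S and G2, had averages of 0.40 ± 0.14 and 0.58 ± 0.21 that did not pass (adjusted p = 0.0736 and 0.0702).

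Nusap1, whose protein binds and bundles spindle microtubules, had the largest female differences of any member, without a call. On 1384280_at it read 0.053, 0.042 and 0.27 in males at 10, against -0.26, -0.07 and 0.14 in males at 0. Female arrays read 1.24, 0.11 and 0.23 at 10, against -0.13, -0.30 and -0.59 at 0. On 1392732_at it read -0.0096, 0.18 and 0.16 in males at 10, against -0.45, -0.042 and 0.19 in males at 0. The male groups overlapped on both probe sets. In females 1392732_at read 1.14, 0.071 and 0.088 at 10, against -0.21, -0.47 and -0.64 at 0. The female groups did not overlap, replicate 10 lay far above the other 2 arrays at 10, and the differences were 0.87 ± 0.23 and 0.87 ± 0.23 (adjusted p = 0.0616 and 0.0592). In the average Nusap1 rose by 0.52 ± 0.16 and 0.54 ± 0.16 (adjusted p = 0.0391 and 0.0321). Without replicate 10 the average on 1384280_at was 0.35 and was not called.

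Kif11 encodes the motor that pushes spindle poles apart, and Kif20a a motor of the late spindle and cytokinesis. Kif11 on 1390891_at read 0.33, 0.11 and 0.37 in males at 10, against -0.16, -0.14 and 0.04 in males at 0. Values in females were 0.88, 0.15 and 0.092 at 10, against -0.022, -0.12 and -0.55 at 0. Neither sex showed overlap, and the average rose by 0.48 ± 0.14 (adjusted p = 0.023). The other Kif11 probe set, 1385619_at, differed by 0.033 ± 0.18 in males and 0.65 ± 0.18 in females and was not called. Kif20a read 0.32, 0.018 and 0.35 in males at 10, against -0.30, -0.17 and -0.083 in males at 0. For females the values were 0.59, 0.24 and -0.033 at 10, against 0.033, -0.29 and -0.56 at 0. Only the male groups were separate for Kif20a, whose average rose by 0.47 ± 0.14 (adjusted p = 0.0248).

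Aurka, a kinase of centrosomes and the spindle, and Ube2c, the conjugating enzyme of the anaphase-promoting complex, completed the called mitotic genes. Aurka read 0.099, 0.15 and 0.36 in males at 10, against -0.35, -0.17 and -0.033 in males at 0. Among females it read 0.92, 0.073 and 0.04 at 10, against -0.068, -0.22 and -0.20 at 0. Its groups were separate in both sexes, and the average rose by 0.45 ± 0.13 (adjusted p = 0.0267). Ube2c read 0.11, 0.021 and 0.44 in males at 10, against -0.27, -0.10 and -0.00044 in males at 0. In females it read 0.73, 0.097 and -0.11 at 10, against -0.076, -0.30 and -0.40 at 0. The female arrays overlapped, and its average of 0.41 ± 0.13 passed narrowly (adjusted p = 0.0474). The mitotic probe sets that were not called in the average differed by 0.072 to 0.58 (adjusted p from 0.0702 to 0.727). They belong to Ccna2, Cdk1, Cdc20 (the activator of the anaphase-promoting complex), the checkpoint kinase genes Bub1 and Bub1b, Aurkb and Birc5 of the chromosomal passenger complex, Plk1 and Prc1, and to the second probe sets of Ccnb1 and Kif11. Cdc20 was read by 5 probe sets, whose female differences ranged from -0.045 to 0.49.

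In females 13 of the 26 G2 and mitosis probe sets were higher at 10 than at 0 without overlap, against 9.67% of all probe sets, and in males 9, against 18.2%. One female array weighed heavily on the class. Replicate 10 at 10 was the highest of the 3 females at that dose in all 26 G2 and mitosis probe sets. Without it the female class median was 0.23, against 0.52 with it, and the averaged contrast called 4 members, against 21. The other 2 females at 10 had class means of 0.082 and -0.0093, above the 3 females at 0 (-0.028, -0.20 and -0.43). On the male side replicate 1 at 0 was the lowest, and the averaged contrast also called 4 members without it. The male G2 and mitosis class median ranged from 0.17 to 0.31 when arrays were left out in turn.

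No transcription factor of the module was called in any comparison. Foxm1 and Mybl2 are activators of mitotic genes, Mybl1 is their relative A-Myb and E2f1 drives genes of the S phase. Mybl1 read 0.49, 0.025 and 0.13 in males at 10 and -0.23, -0.018 and -0.20 in males at 0, with no overlap and a difference of 0.37 ± 0.14 (adjusted p = 0.0838). The females read 0.28, -0.16 and 0.11 at 10 and -0.00074, -0.11 and -0.28 at 0. Foxm1 on 1369018_at read 0.17, -0.059 and 0.14 in males at 10 and -0.12, -0.052 and -0.044 in males at 0, and its groups overlapped. In females 1369018_at read 0.54, 8.5e-05 and -0.032 at 10 and 0.073, -0.16 and -0.23 at 0. On 1398470_at Foxm1 read 0.022, 0.048 and 0.043 in males at 10 and -0.11, -0.074 and 0.023 in males at 0. In females 1398470_at read 0.39, 0.14 and -0.01 at 10 and -0.09, 0.01 and -0.30 at 0. The female differences of Foxm1 were 0.28 ± 0.14 and 0.30 ± 0.13 (adjusted p = 0.423 and 0.324). E2f1 differed by 0.019 in males and -0.085 in females, and the 2 Mybl2 probe sets by -0.035 and 0.093 in males and 0.15 and 0.20 in females.

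**Figure D4:**
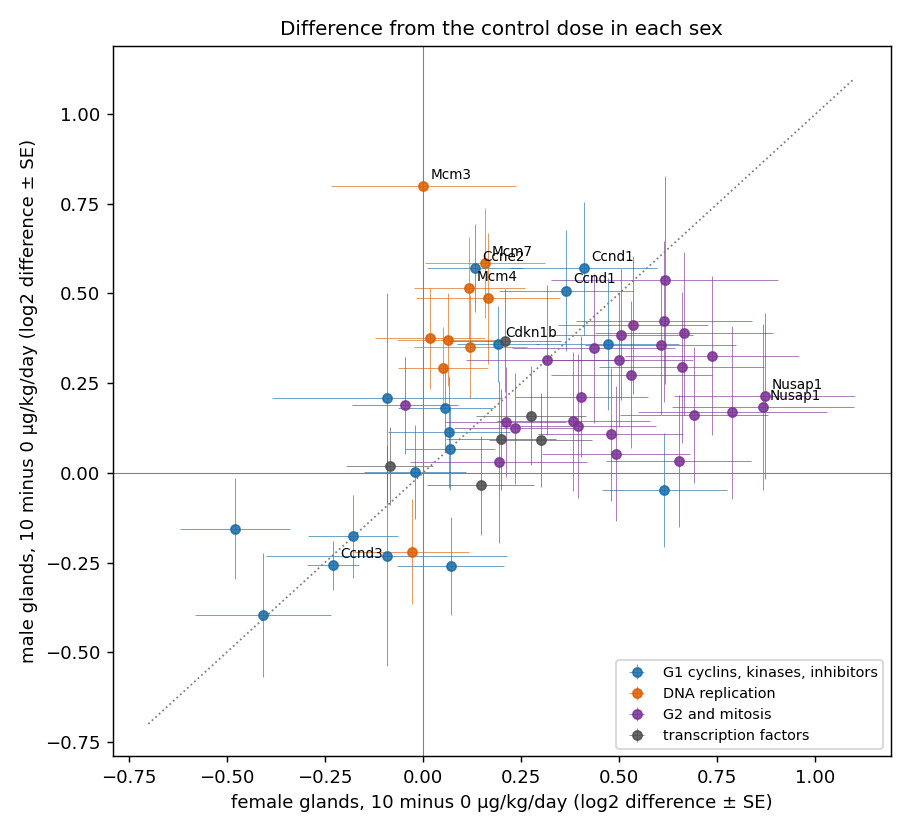
Log2 difference of 10 minus 0 µg/kg/day for each of the 58 member probe sets, females on the horizontal axis and males on the vertical axis; crosses are SE, the dotted line marks equal differences, and labels name members called in males and Nusap1. DNA replication points lie above the line except Tyms (class median 0.38 in males, 0.063 in females), and most G2 and mitosis points lie below it (class median 0.21 in males, 0.52 in females).

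The difference between the sexes was tested directly, as what 10 minus 0 gave in males less what it gave in females. At 10 limma called 0 members higher and 0 lower, against 0.525% and 0.754% of all probe sets. At an unadjusted p under 0.05 it had 2 higher (against 10% of all), Ccne2 on 1391681_at (0.44 ± 0.17, adjusted p = 0.191) and Mcm3, and 2 lower (against 9%), Cdkn1b on 1369192_at and Kif11 on 1385619_at (-0.62 ± 0.26, adjusted p = 0.215). The class medians of this contrast were 0.32 for DNA replication and -0.24 for G2 and mitosis, beside -0.011 over all probe sets. The sign of the G2 and mitosis median was not stable: it was 0.027 without replicate 10 of the females at 10 and 0.13 with the T and B cell covariates. The replication median was 0.11 with the beta-actin covariate, the lowest of the alternatives run, and 0.46 without replicate 10, the highest. At 1 the contrast called 0 and 0 (against 0.0451% and 0.00322% of all; 7 and 2 at an unadjusted p under 0.05, against 5.15% and 4.71%), and at 0.1 0 and 0 (against 0% and 0%; 0 and 0 unadjusted, against 3.78% and 3.52%).

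Across the male doses the mean of the replication class was, from low to high dose, -0.22 ± 0.10, -0.015 ± 0.058, 0.08 ± 0.077 and 0.17 ± 0.13 (SD, n = 3 arrays each). The arrays at 0.1, 1 and 10 overlapped with their neighbours, and those at 0 lay below all of them. In males at 1 against 0, limma called 0 members higher and 1 lower (Ccnd3), against 1.53% and 2.1% of all probe sets, with 9 and 2 at an unadjusted p under 0.05 (against 8.28% and 10.2%). At 0.1 it called 0 and 0 (against 0% and 0%; 3 and 1 unadjusted, against 5.3% and 6.63%). Males at 10 against 1 had 0 and 0 called (against 0.177% and 0.209%; 1 and 0 unadjusted, against 3.98% and 5.43%), the unadjusted one being Ccne2 on 1391681_at. Ccnd1 on 1383075_at read 0.30, 0.23 and 0.29 in males at 1, as high as at 10, and 0.0089, -0.0089 and -0.032 at 0.1. The male comparisons with 0 share the same 3 control arrays.

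The female doses did not form a series. The G2 and mitosis mean was, from low to high dose, -0.22 ± 0.20, 0.13 ± 0.33, -0.21 ± 0.25 and 0.31 ± 0.47 (SD, n = 3 arrays each). At 0.1 replicates 4 and 6 were above 0 in all 26 probe sets of that class and replicate 5 in 0, and the class means of the 3 arrays were 0.24, -0.25 and 0.39. At 1 they were 0.054, -0.25 and -0.44. The highest of these lay above all females at 0, the lowest below all of them and the middle array within their range. In females at 1 against 0 limma called 0 and 0 members (against 0% and 0% of all; 0 higher and 2 lower unadjusted, against 0.879% and 1.85%), and at 0.1 0 and 0 (against 0% and 0%; 10 and 2 unadjusted, against 3.81% and 6.12%). Females at 10 against 1 had 0 and 0 called (against 0.184% and 0.0838%), with 27 higher (46.6% of members, against 5.9% of all) and 1 lower (against 4.21%) at an unadjusted p under 0.05 and a G2 and mitosis median of 0.52. The G2 and mitosis means of the females at 10 were 0.85 in replicate 10, 0.082 in replicate 11 and -0.0093 in replicate 12. The part of replicate 10 in the unadjusted counts was not tested. The female comparisons with 0 also share their 3 control arrays.

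Over the 24 arrays the mitotic members moved together. Pearson's r of each probe set with the mean of the G2 and mitosis class had a median of 0.94 among that class's own 26 probe sets (from 0.48 to 0.99), which are part of that mean. It was 0.74 for the transcription factors, 0.61 for DNA replication and 0.078 for G1 (from -0.51 to 0.76). Mitotic genes are favoured by being part of that mean, so their r cannot be set against that of the replication genes. The G1 genes were spread from opposite to alike. Outside the module the probe sets most like it were of Aspm, a spindle pole gene, at r = 0.98, the cytokinesis genes Ect2 and Racgap1 at 0.97 and 0.97, the kinase gene Melk at 0.97 and the separase gene Espl1 at 0.96. The points share arrays, centring and the outlying female array, and r is given as a description.

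A wider list of 82 cell cycle genes, none of them members, gave 69 measured genes on 95 probe sets. In males at 10, 9 of the 95 were called higher (9.47%, against 7.81% of all probe sets) and 0 lower (against 9.64% of all). In females at 10 the counts were 1 (1.05%, against 0.812%) and 0 (against 1.05%), and in the average 20 probe sets from 19 genes (21.1%, against 5.56%) and 0 (against 8.01%). The shares called higher within each sex were thus near those of the whole array. Their median difference was 0.24 in males and 0.21 in females. Incenp, the scaffold of the chromosomal passenger complex, was the one gene of the wider list called in females. On 1397539_at it read 0.11, 0.19 and 0.38 in males at 10, against -0.25, -0.19 and -0.19 in males at 0. Female arrays read 0.66, 0.55 and 0.19 at 10, against -0.071, 0.0083 and -0.11 at 0. It rose by 0.44 ± 0.11 in males and 0.52 ± 0.11 in females (adjusted p = 0.00914 and 0.0165), and by 0.67 ± 0.11 in females at 10 against 1 (adjusted p = 0.0107). Another Incenp probe set, 1378669_at, was not called in any comparison. It read -0.20, 0.097 and -0.018 in males at 10 and 0.099, 0.0031 and 0.068 in males at 0, overlapping groups, and 0.76, 0.33 and 0.13 in females at 10 and -0.11, -0.16 and 0.0064 in females at 0, with no overlap. The largest rise of the list was that of Cdkn1c, an inhibitor of the G1 kinases, with 0.89, 0.63 and 0.79 in males at 10 and 0.057, -0.58 and -0.42 in males at 0. That difference was 1.08 ± 0.21 (adjusted p = 0.00163). Female Cdkn1c values were 0.25, 0.17 and 0.058 at 10 and -0.32, -0.24 and -0.49 at 0, without overlap and without a call.

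The other genes of the wider list called in males were Cdc45, which loads onto the helicase (0.48), the DNA ligase gene Lig1 (0.41), the condensin gene Smc4 (0.63), the spindle motor gene Kif15 (0.47), Stmn1, whose protein destabilises microtubules (0.53), and Rbl1 and E2f5, which act together as repressors (0.61 and 0.44). In the average the calls added the replication genes Pola1 (0.35), Prim1 (0.50) and Rfc4 (0.32). They also added the mitotic genes Cenpf (0.56), Kif18a (0.37), Kif23 (0.56), Mad2l1 (0.42), Cdca3 (0.44), Espl1 (0.43), Melk (0.54), Racgap1 (0.57), Ect2 (0.57) and Ncapd2 (0.38), and the restriction point gene Rb1 (0.31). Lig1, Kif15, Stmn1, Incenp on 2 of its 3 probe sets and Cdkn1c were called in the average as well. Cdc45, Lig1, Smc4, Kif23, Mad2l1 and Racgap1 were each called on a single probe set. Their other probe sets were not called in any comparison.

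Markers of tissue composition differed between the same groups. The mean of 17 luminal epithelial genes, all measured on 21 probe sets, was -0.038, 0.38 and 0.27 in males at 10, against -0.95, -0.60 and -0.041 in males at 0. In females it was 0.57, 0.47 and 0.095 at 10, against -0.20, -0.30 and -0.22 at 0. The male groups touched without overlap and the female groups were apart. Limma called 7 luminal probe sets higher and 1 lower in males and 4 and 0 in females. Of all probe sets tested it called 7.81% higher and 9.64% lower in males, and 0.812% and 1.05% in females. All 12 white adipocyte genes were measured, on 20 probe sets, of which 19 were lower in males at 10 and 13 in females at 10, with medians of -1.08 and -0.71. Of 8 listed keratinocyte genes 6 were measured, and their mean was 1.09, 1.94 and 0.87 in males at 10 and -0.80, -0.80 and -0.32 in males at 0, with 6 of 6 probe sets higher. Basal epithelial genes, 8 of 8 on 10 probe sets, had 4 higher and 1 lower in males and 1 and 0 in females. The part of these shifts in the module's values was not tested.

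Lymphocyte markers, which can come with the gland's lymph node, varied from array to array. The mean of 9 T cell genes, of 10 listed, was -0.20, 0.76 and 0.80 in males at 10 and -1.73, 0.33 and -1.17 in males at 0. In females it was -2.03, 0.70 and -0.037 at 10 and -0.40, 0.31 and 0.87 at 0. The lowest female value at 10 was that of replicate 10, the array with the highest G2 and mitosis mean. The mean of 5 B cell genes, of 8 listed, was -0.038, 0.83 and 0.62 in males at 10 and -1.56, 0.038 and -1.28 in males at 0, and in females -1.68, 0.60 and -0.045 at 10 and -0.32, 0.15 and 0.75 at 0. No T cell or B cell probe set was called in either sex. With the T and B cell means as covariates no member was called in males at 10, against 8 without them, and with the beta-actin difference as covariate also none. Without the 5 arrays that carried hepatocyte transcripts, which leaves 1 male array at 0 and assumes that it varies like the other groups, 2 members were called in males.

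**Figure D5:**
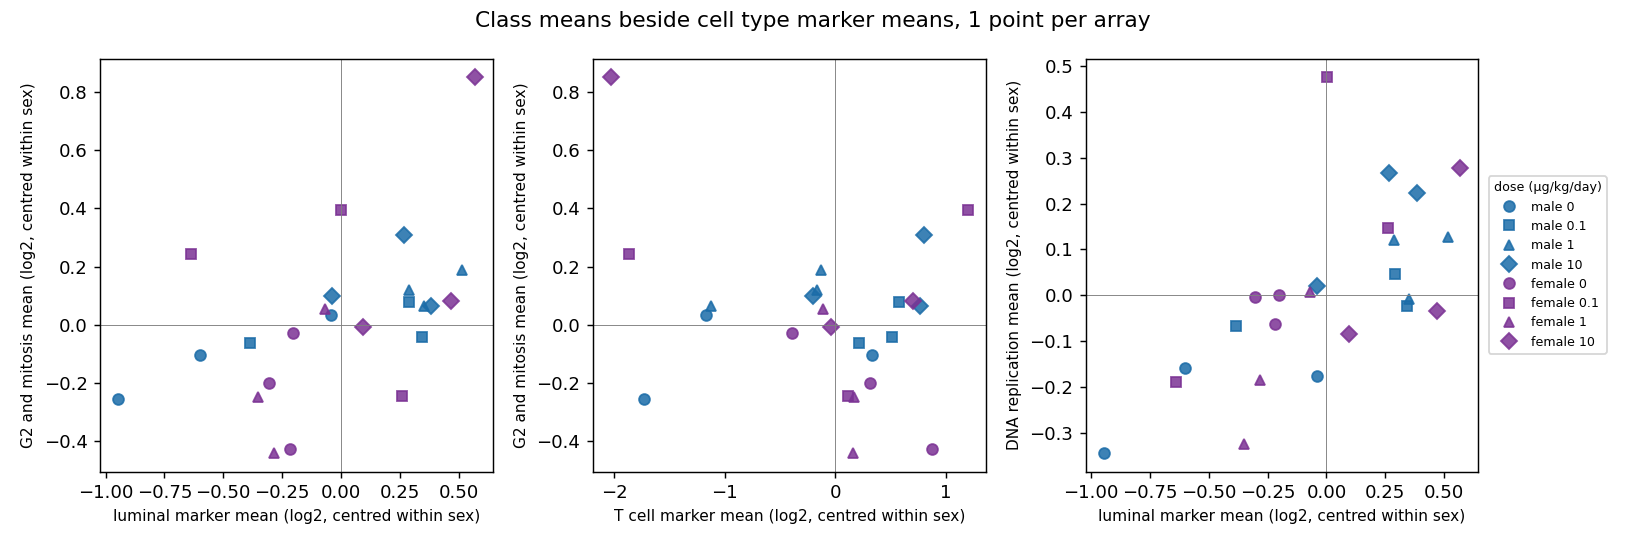
Class mean against marker mean for each of the 24 arrays (log2, centred within sex): G2 and mitosis against luminal markers, G2 and mitosis against T cell markers, and DNA replication against luminal markers; colour marks the sex and shape the dose in µg/kg/day. The array with the highest G2 and mitosis mean, 0.85, had a luminal mean of 0.57 and a T cell mean of -2.03, and the male array at 0 with the lowest replication mean, -0.34, had a luminal mean of -0.95.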

How the data were processed

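RNA of whole abdominal glands was hybridised to 24 Affymetrix arrays, 3 in each of 8 groups taken from the sample titles. The deposited table holds signed log2 values for each probe set; GCOS (the array maker's operating software) appears with neither version nor role, per the submitters' processing notes. How the values were summarised, normalised and centred, and the base of the log, are unstated in the labels; a base of 2 was assumed, so folds depend on it and tests do not. Every probe set had 3 to 9 of the 12 arrays of a sex above 0, and the median over those 12 lay between -0.1 and 0.1 for 91.2% of probe sets in males and 94.6% in females. The values were therefore taken as centred near 0 within sex, although 0 is not the median of the 12 arrays. Differences between doses within a sex do not depend on that centring. Array medians lay between -0.0176 and 0.0132, and 0 values were missing and 0 arrays identical. No further normalization was applied. Centred values keep no signal over background. Precision is limited by the number of arrays.

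Of the probe sets, 57 controls were left out and 31042 were tested; 20826 had 1 gene in the platform annotation, which can be old. The model held a mean for each of the 8 groups, in limma 3.58.1 (R 4.3.3; lmFit, eBayes; 16 residual and 2.95 prior degrees of freedom), with Benjamini-Hochberg adjustment over all 31042 and a threshold of 0.05. Errors of differences are SE, intervals are 95% from the same fit, and n = 3 arrays per group. The fit was tested on simulated data. Dose comparisons were made within a sex, and the interaction is the male minus the female difference. Members in full are those past the threshold in any comparison, plus, in a class with none, those with the smallest p at 10 in each sex. From outside the module, the listed cell cycle genes past the threshold and the 5 genes most like the mitotic mean are named. The members, the classes and all lists were chosen with earlier results of these data known. Alternatives were array weights, quantile normalization, probe sets averaged per gene, probe sets with 1 gene, the compared groups alone, fits without the arrays that hold hepatocyte transcripts, marker and beta-actin covariates, a replicate block and leaving out each array. Leaving out the 2 arrays with the widest spread was added after seeing the data. Promoter windows are RefSeq's on GRCr8, a build no source ties to the arrays.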

Additional observations from a re-analysis of the deposited data

How the results depend on the processing

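No called member changed direction under any alternative. The cause of the lost calls was not tested. Counts over all probe sets are given below only for the replicate block. Whether the other changes in count are particular to the members was therefore not tested. The count of members called in males at 10 against 0, 8 in the main analysis, was 14 with array weights, 3 with hepatocyte and skeletal muscle covariates, 2 without the 5 arrays with hepatocyte transcripts (1 male array at 0 left), and 0 with T and B cell covariates or the beta-actin covariate. It ranged from 2 to 9 when arrays were left out in turn, and was 2 without replicate 1 of the males at 0, or without replicate 11 or 12 of the males at 10. In females at 10, 0 became 5 with quantile normalization, 4 with the hepatocyte and muscle covariates, 3 with array weights, 2 without the 2 widest arrays, and 1 per gene, with 1-gene probe sets, with T and B cell covariates or with beta-actin; it ranged from 0 to 5 with arrays left out, 5 without replicate 12 at 10 and 1 without replicate 11. In the average, 21 became 13 with the compared groups alone, 12 with the hepatocyte and muscle covariates, 9 without the 2 widest arrays, 5 without the hepatocyte arrays and 3 with beta-actin, and it ranged from 4 to 21 with arrays left out. That count was 4 without replicate 10 of the females at 10 or replicate 1 of the males at 0, 5 and 8 without replicates 12 and 11 of the males at 10, 7 and 10 without replicates 3 and 2 of the females at 0, and 10 without replicate 2 of the males at 0. Of the calls, 1 of 8 in males and 2 of 21 in the average held whichever single array was left out (Ccne2 in males, Ccne2 and Ccnd3 in the average), and 0 held under every other alternative.

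In males at 1, 1 became 6 with array weights, 2 per gene, with quantile normalization or with hepatocyte and muscle covariates, and 0 without the hepatocyte arrays, with T and B cell covariates or without the 2 widest arrays; it ranged from 0 to 3 with arrays left out. Other counts of 0 became 2 in females at 0.1 (array weights), 3 in males at 0.1 (beta-actin), 2 in females at 10 against 1 (quantile normalization, and without the 2 widest arrays), 1 in males at 10 against 1 and 2 for the interaction at 10 (array weights). The G1 median of females at 0.1, -0.029, became 0.066 with quantile normalization, 0.088 with hepatocyte and muscle covariates, 0.11 with beta-actin and 0.12 without the 2 widest arrays, and ranged from -0.034 to 0.12 with arrays left out; the replication median there was 0.35 without the widest arrays, with a range of 0.026 to 0.35, and the G2 and mitosis median 0.091 with array weights. The male G2 and mitosis median was 0.53 at 10 and 0.47 at 1 with T and B cell covariates. With arrays left out, the medians of females at 10 ranged from -0.032 to 0.088 for G1, 0.23 to 0.68 for G2 and mitosis and 0.042 to 0.32 for transcription factors, and the G1 median of males at 1 from -0.0054 to 0.16.

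With the replicate number as a block across the sexes, the interaction called 0 members at 10, 1 and 0.1, as without it, and 443, 27 and 0 of all probe sets, against 397, 15 and 0 without the block. The numbers did not pair the samples: same-numbered arrays correlated from -0.48 to 0.59, over 0.1 in 5 of 12 pairs, and 0 arrays correlated best with their own number. Within a sex each number occurs once, so no paired fit could be made there.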

Other observations

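Rrm2, the small subunit of ribonucleotide reductase, was listed with the replication genes but was read only by 2 probe sets that the annotation gives to Rrm2l1 and Rrm2 together, so it was left out of the counts. On 1389408_at the pair read 0.089, 0.11 and 0.50 in males at 10, against -0.40, -0.26 and -0.056 in males at 0. Values in females were 0.96, -0.0048 and -0.018 at 10, against -0.13, -0.19 and -0.48 at 0. The groups did not overlap in either sex, and replicate 10 of the females was again far above its group. The averaged difference of 0.52 ± 0.17 passed in limma (adjusted p = 0.0467), and that of 1393848_at, 0.54 ± 0.20, did not (adjusted p = 0.0815). Within a sex neither was called: the differences were 0.47 and 0.32 in males and 0.58 and 0.75 in females.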
